A study of Mus musculus with 4 samples.

Results

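Extracellular matrix proteases and their inhibitors were described here through 10 genes of the 50766 in the deposited tables. They were Mmp2, Mmp7, Mmp14, Mmp15, Mmp25, Tll1, Tll2, Timp1, Timp2 and Timp3. The genes were chosen by name, with earlier results of these data known, so their levels per cell class and their differences between groups are given as descriptions, with no p-values. They entered the fits over all genes, and counts of those past the threshold are given beside the share of all genes and support nothing. Single cells labelled as biliary epithelial cells came from the livers of 4 mice of the genotype Sox9EGFP, a reporter in which Sox9 regulatory sequence drives green fluorescent protein. Both groups carried it. Of the 4 livers, 2 were taken 7 days after a sham operation and 2 were taken 7 days after bile duct ligation (BDL), which blocks the outflow of bile. Each mouse gave 1 library, so n = 2 a group, and p-values measure only the spread between these mice. Age, sex and strain were not given in the sources used here.

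Matrix metalloproteinases (MMPs) are zinc endopeptidases that cut collagens, laminins, growth factor precursors and cell surface proteins. Some are secreted, as Mmp2 (gelatinase A) and Mmp7 (matrilysin), and others stay at the membrane, as Mmp14, Mmp15 and Mmp25. Mmp14 also activates the proform of Mmp2, with Timp2 as the adaptor. Tll1 and Tll2 are tolloid-like astacin proteases related to Bmp1, the procollagen C-proteinase. The tissue inhibitors of metalloproteinases, here Timp1, Timp2 and Timp3, block the active site, and Timp3 binds to the matrix and also inhibits ADAM sheddases. In injured liver, hepatic stellate cells and portal fibroblasts are known sources of matrix, Mmp2 and Timp1, and Mmp7 is known from ductal and other mucosal epithelia.

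Of 12211 deposited cells, 12179 were kept, with no cell barcode shared between libraries. Biliary epithelial cell-like (BEC-like) cells numbered 2619 and 2579 in sham and 1966 and 3814 in BDL, and their clusters met the limits for 6 to 11 of 11 biliary markers. Mesenchymal-like cells numbered 188 and 422 in sham and 71 and 132 in BDL. The remaining cells were endothelial-like, macrophage-like or hepatocyte-like, the classes ranging from 2 to 122 cells a library. Median unique molecular identifiers (UMIs, counted transcripts) per cell were 3260 and 2610 in sham and 7058 and 7793 in BDL. The group name inside the deposited cell table contradicted the sample label for sham replicate 2 and for BDL replicate 2, and groups follow the labels throughout. Levels are given as CPM, a gene's UMIs per 1000000 UMIs summed over the cells. BDL replicate 2 also stood apart in Xist, at 1969 CPM in BEC-like cells against 8.23 to 10.7 CPM in the other libraries. Whether this mouse differed in sex from the others was not tested, and any such difference is mixed with treatment in comparisons that include it. The ratio of the remaining pair of libraries, sham replicate 1 and BDL replicate 1, is therefore given as well, and has no replicate.

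The promoters of 4 members are shown because the results turn on them. Mmp7 and Timp1 had the largest differences between BDL and sham, and Mmp25 and Tll2 were found in the same biliary cells. The sequences are the 250 bases before the transcription start, from RefSeq (GRCm38.p6), which held 9 of the 10 members and 2 starts for Mmp7, of which the upstream one is shown. The deposited counts were made on another assembly, GRCm39 per the submitters' processing notes. Capitals mark matches to the AP-1 motif TGANTCA, the TEAD motif GGAATG and the TATA box TATAAA, searched on both strands. 
Mmp7 (chr9:7691840-7692089, plus strand): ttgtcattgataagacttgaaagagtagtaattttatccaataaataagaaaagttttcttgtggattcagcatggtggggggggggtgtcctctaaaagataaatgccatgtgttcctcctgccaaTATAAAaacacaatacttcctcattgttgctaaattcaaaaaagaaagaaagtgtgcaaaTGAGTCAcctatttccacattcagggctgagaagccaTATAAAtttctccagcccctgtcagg
Timp1 (chrX:20869916-20870165, plus strand): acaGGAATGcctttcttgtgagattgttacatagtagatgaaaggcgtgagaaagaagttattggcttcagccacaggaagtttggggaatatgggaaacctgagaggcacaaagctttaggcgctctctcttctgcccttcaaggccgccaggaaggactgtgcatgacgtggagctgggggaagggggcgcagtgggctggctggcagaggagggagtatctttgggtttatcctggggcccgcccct
Mmp25 (chr17:23645270-23645519, minus strand): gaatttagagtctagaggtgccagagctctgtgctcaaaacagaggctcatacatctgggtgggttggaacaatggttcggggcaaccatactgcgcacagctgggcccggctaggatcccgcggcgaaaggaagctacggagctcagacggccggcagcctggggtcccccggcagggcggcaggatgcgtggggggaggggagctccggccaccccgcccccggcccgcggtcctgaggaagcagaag
Tll2 (chr19:41206775-41207024, minus strand): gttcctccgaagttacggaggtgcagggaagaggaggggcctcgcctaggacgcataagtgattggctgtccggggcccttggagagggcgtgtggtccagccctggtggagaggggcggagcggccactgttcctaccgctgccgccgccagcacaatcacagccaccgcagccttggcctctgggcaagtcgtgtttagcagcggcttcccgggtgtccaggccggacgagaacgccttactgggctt
The Mmp7 promoter held 1 AP-1 match, whose first base lay at -63 from the start, and 2 TATA matches at -123 and -26. The 250 bases before the other Mmp7 start held no match. Among all 32851 RefSeq promoters of this length, 6.75% held an AP-1 match and 12.4% a TATA match. The Timp1 promoter held 1 TEAD match at -247, a motif in 12.6% of all promoters. The Mmp25 and Tll2 promoters held none of these letters in the 250 bases. A match is a description of the sequence only.

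In BEC-like cells, Mmp7, Mmp14 and Timp1 were higher after BDL, and Mmp25 and Tll2 were lower in both BDL libraries with a wide spread between them. Mmp15, Timp2 and Timp3 differed by less than 0.25 on the log2 scale. Of the 8 members with enough counts to enter the fit (Mmp2 and Tll1 did not), 3 passed the threshold of an adjusted p under 0.05 as higher, beside 14.1% of all genes tested. No member passed as lower in edgeR or in DESeq2, beside 12.8% of all genes in edgeR. At an unadjusted p under 0.05 edgeR had 1 lower member and DESeq2 had 0. For all 8 the groups did not overlap, as for 68.7% of all genes tested. The members' median log2 difference was 0.01, and that of all genes tested was -0.02. Nothing is read from these counts, since the members were chosen on such values. Different first-round clusters held most BEC-like cells in the 2 groups, clusters 0, 3, 4 and 6 in sham and clusters 1, 2, 5, 7, 9 and 10 in BDL. Sham replicate 2 and BDL replicate 2 each fell with the other library of their label in this split. Cluster 5 had the mesothelial marker Msln among its top 10 genes, and cluster 17 was led by tuft cell genes. Of the BEC-like clusters only cluster 2 had biliary markers among its top 10 genes, and cluster 5 met the limits for 11 of 11. Cluster 5 held 17 and 15 cells in sham and 286 and 863 cells in BDL, so leaving it out removed mainly BDL cells. Without clusters 5 and 17, the log2 fold changes were 3.77 for Mmp7, 0.66 for Mmp14, 2.38 for Timp1, -1.51 for Mmp25, -1.14 for Tll2, 0.29 for Mmp15, -0.28 for Timp2 and -0.30 for Timp3.

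Mmp7, matrilysin, was measured at 21.5 and 6.80 CPM in sham and at 152 and 266 CPM in BDL, all scaled by TMM, edgeR's normalization. Both BDL libraries were above both sham libraries, and sham replicate 1 was above sham replicate 2. The log2 fold change was 3.86 ± 0.50 (SE, n = 2 a group), or 14.5-fold. In the pair of libraries whose inner names match their labels it was 2.73. Before correction for depth, 6.34% and 1.90% of BEC-like cells held an Mmp7 UMI in sham, and 43.2% and 62.3% did in BDL. After each cell was thinned to 1000 UMIs the shares were 2.60% and 0.324% in sham and 12.9% and 20.7% in BDL. Thinning kept 2534 and 2472 BEC-like cells in sham and all 1966 and 3814 in BDL. In mesenchymal-like cells, which should lack Mmp7, the thinned share was at most 0.552%. The difference was present in each BEC-like subcluster that could be compared. These subclusters were built without the members and without the 6493 genes that differed between BDL and sham at an unadjusted p under 0.05. Across the first 5 subclusters the sham libraries ranged from 3.70 to 34.7 CPM (here plain CPM, without TMM) and the BDL libraries from 114 to 361 CPM. The highest level, 361 CPM, was in the subcluster led by Dmbt1 and Anxa1 in BDL replicate 2.

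Of 11031 Mmp7 UMIs, 10931 (99.1%) lay in BEC-like cells, which held 92.9% of all UMIs. Its plain level over all libraries was 169 CPM in BEC-like and 3.85 CPM in mesenchymal-like cells. Mesenchymal-like cells held 14 UMIs. The macrophage-like cells held 76 UMIs, a level of 105% of that in BEC-like cells. In the same cells the 11 biliary markers stood at 21.6% to 89.2% of their BEC-like level, with a median of 79.6%, and the part of biliary RNA in that Mmp7 level was not tested.

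**Figure D1:**
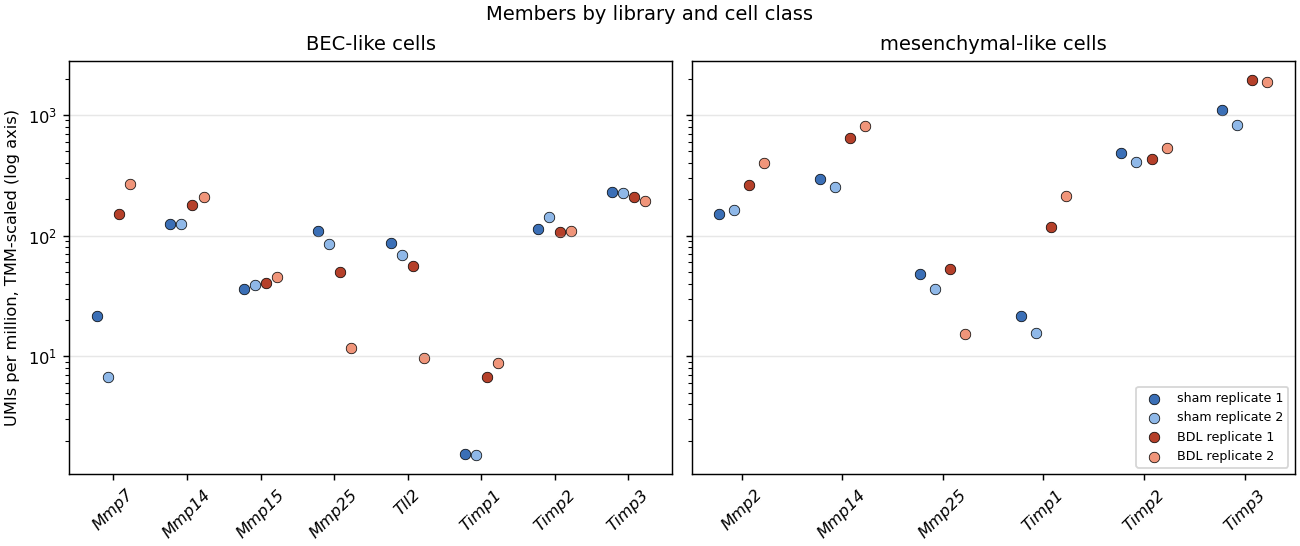
TMM-scaled CPM of each tested member (vertical log axis) in each library, for BEC-like cells (left, 8 members) and mesenchymal-like cells (right, 6 members); each point is 1 mouse. In BEC-like cells Mmp7 lies at 6.80 to 21.5 in sham and at 152 to 266 in BDL, while Mmp25 and Tll2 are lowest in BDL replicate 2.

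Mmp14, the membrane-type 1 MMP, was at 126 and 124 CPM in sham BEC-like cells and at 179 and 210 CPM in BDL. The groups did not overlap, and the log2 fold change was 0.64 ± 0.12 (SE), or 1.56-fold, with 0.41 in the pair of libraries whose names match. The thinned share of cells with an Mmp14 UMI was 12.1% and 11.6% in sham and 16.2% and 19.5% in BDL. Across the first 5 BEC-like subclusters the sham libraries ranged from 111 to 139 CPM and the BDL libraries from 133 to 226 CPM. In the subcluster led by Dmbt1 and Anxa1, BDL replicate 1 (133 CPM) lay between the sham libraries (131 and 137 CPM). Mmp15, the membrane-type 2 MMP, was at 36.1 and 39.0 CPM in sham and 40.5 and 45.7 CPM in BDL, a log2 fold change of 0.20 ± 0.13 (SE), and 0.07 in that pair. Over all libraries its plain level was 42.0 CPM in BEC-like cells, 4.40 CPM in mesenchymal-like cells and 38.2 CPM in hepatocyte-like cells. The last rests on 18 UMIs (exact Poisson 95% interval 22.6 to 60.4), 1 and 1 in sham and 6 and 10 in BDL. In the hepatocyte-like cells the 11 biliary markers stood at 6.51% to 130% of their BEC-like level. The part of biliary RNA in that Mmp15 level was not tested. The Mmp15 level was highest in the subcluster led by Klf2 and Ces1c, at 46.0 and 44.1 CPM in sham and 74.8 and 74.5 CPM in BDL. In the subclusters led by Ankrd1 and Ccn2 and by Dmbt1 and Anxa1 the groups overlapped for Mmp15.

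Timp1 was scarce in BEC-like cells, at 1.55 and 1.51 CPM in sham and 6.78 and 8.76 CPM in BDL. These levels rest on 16 and 12 UMIs in sham and 98 and 278 UMIs in BDL. The log2 fold change was 2.34 ± 0.29 (SE), or 5.07-fold, and 2.03 in the pair whose names match. After thinning, no more than 0.708% of BEC-like cells in any library held a Timp1 UMI. Mesenchymal-like cells are rich in Timp1, and the level in BEC-like cells was 4.1% to 9.9% of theirs. The 11 mesenchymal markers were all detected in BEC-like cells, at a summed 106 and 104 CPM in sham and 18.2 and 33.1 CPM in BDL. That sum was 0.0745% to 0.673% of its mesenchymal-like level, and the highest single marker, Reln, reached 3.59% in sham replicate 1. Reln alone gave 83.29 and 75.35 CPM of the sum in sham and 5.82 and 8.715 CPM in BDL. The median marker stood at 0.143% and 0.244% of its mesenchymal-like level in sham and at 0.0614% and 0.0986% in BDL. The part of mesenchymal RNA in the BEC-like Timp1 level was not tested. Timp2 was at 113 and 143 CPM in sham and 107 and 110 CPM in BDL, with a log2 fold change of -0.24 ± 0.14 (SE), and -0.18 in that pair. In the subcluster led by Klf2 and Ces1c Timp2 was higher in both BDL libraries, at 124 and 137 CPM against 118 and 113 CPM in sham (plain CPM), and in those led by Ankrd1 and Ccn2 and by Ryr1 and Iqch the groups overlapped. Timp3 was at 230 and 226 CPM in sham and 209 and 193 CPM in BDL, with a log2 fold change of -0.18 ± 0.11 (SE), and -0.23 in that pair. The lower Timp3 did not hold in every BEC-like subcluster. In the one led by Dmbt1 and Anxa1 Timp3 was higher in both BDL libraries, at 308 and 285 CPM against 256 and 184 CPM in sham (plain CPM). In those led by Ankrd1 and Ccn2 and by Klf2 and Ces1c the groups overlapped. Timp3 is high in endothelial-like cells, and 10 endothelial markers summed to 50.3 and 50.2 CPM in sham BEC-like cells and to 25.8 and 14.5 CPM in BDL. Their part in the lower Timp3 was not tested. Plain Timp2 levels were 64.8 and 34.4 CPM in sham endothelial-like cells, from 4 and 5 UMIs. In sham BEC-like cells they were 120 and 137 CPM. The cause of the lower Timp2 was not tested.

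Mmp25, a membrane-anchored MMP also known as leukolysin, was at 109 and 85.9 CPM in sham BEC-like cells and at 49.6 and 11.8 CPM in BDL. Tll2, tolloid-like 2, was at 86.6 and 69.3 CPM in sham and at 55.8 and 9.61 CPM in BDL. For both genes the BDL libraries lay below the sham libraries, and BDL replicate 2 lay far below BDL replicate 1. The log2 fold changes were -1.70 ± 0.57 (SE) for Mmp25 and -1.29 ± 0.68 (SE) for Tll2. Without BDL replicate 1 they were -3.02 and -3.00, and without BDL replicate 2 they were -0.97 and -0.48. In the pair of libraries whose names match they were -1.23 and -0.73.

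Within the biliary compartment both genes were concentrated in a minority of cells. The subcluster led by Ryr1 and Iqch held 400 and 202 cells in sham and 242 and 117 cells in BDL, which was 15.3%, 7.83%, 12.3% and 3.07% of the BEC-like cells. Mmp25 was measured there at 455 and 558 CPM in sham and 334 and 245 CPM in BDL. In all other BEC-like cells together it was at 50.5 and 41.3 CPM in sham and 10.3 and 4.70 CPM in BDL. Tll2 was at 395 and 359 CPM in sham and 328 and 156 CPM in BDL in that subcluster, against 34.1 and 41.0 CPM in sham and 18.1 and 5.15 CPM in BDL elsewhere. Inside the subcluster both BDL libraries were below both sham libraries for both genes. The other cells pool subclusters of unequal shares, such as the one led by Klf2 and Ces1c, with 35.9% and 50.1% of BEC-like cells in sham and 11.5% and 7.60% in BDL. In the one led by Dmbt1 and Anxa1 the groups overlapped for Mmp25, at 9.14 and 9.80 CPM in sham and 9.80 and 7.96 CPM in BDL. The subcluster itself held 53.5% to 81.5% of the biliary Mmp25 UMIs and 42.7% to 71.1% of those of Tll2.

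**Figure D2:**
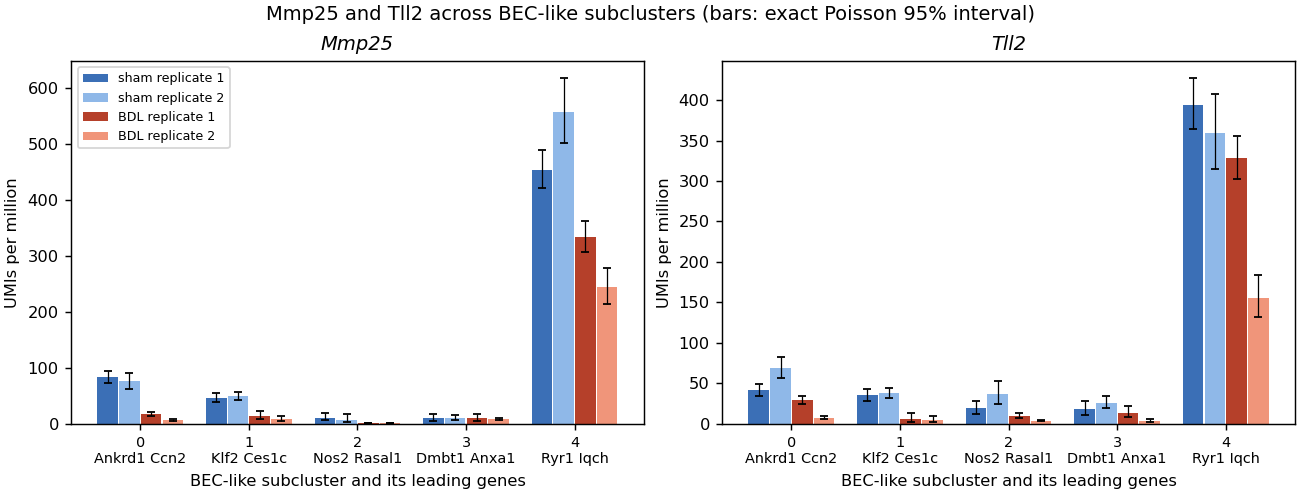
CPM of Mmp25 (left) and Tll2 (right) in the 5 largest BEC-like subclusters, each named by its 2 leading genes, with 1 bar per library and exact Poisson 95% intervals that cover counting error only. Both genes peak in subcluster 4, led by Ryr1 and Iqch, in all 4 libraries, where Mmp25 lies between 245 and 558.

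A concentration in few cells was also seen in the first clustering, which left out the members but kept the genes that differ with treatment. There, cluster 6 (473 and 307 cells in sham) and cluster 9 (236 and 146 cells in BDL) together made up 18.2%, 11.9%, 12.6% and 3.93% of BEC-like cells. They held 68.7% to 84.1% of the biliary Mmp25 UMIs and 51.8% to 73.5% of those of Tll2. For Tll2 the groups overlapped in these clusters, at 350 and 298 CPM in sham and 318 and 134 CPM in BDL. Single cells shared the 2 transcripts as well. After thinning, 53 and 34 cells in sham and 19 and 8 cells in BDL held UMIs of both Mmp25 and Tll2. The product of the separate shares would give 14.9, 8.56, 3.78 and 0.366 cells. That product is over all BEC-like cells and does not allow for both genes peaking in the same subcluster. Timp2, given next, did not peak there. For Mmp25 with Timp2 the corresponding counts were 26, 18, 10 and 4 cells, beside products of 23.4, 20.1, 9.32 and 4.37.

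Likeness of pattern was taken as Pearson's r of log2(CPM + 1) over 21 units, each a BEC-like subcluster in 1 library with at least 30 cells. The units share libraries, depth and treatment, so these values are descriptions. Among 3577 genes of at least 50 CPM, the genes most like Mmp25 were Krt78 (r = 0.947), Gm41496 (0.944) and Junos (0.940), and its r with Tll2 was 0.902. Those most like Tll2 were Ccdc138 (r = 0.938), 6030407O03Rik (0.923) and Pde4c (0.919). Mmp7 was most like Setd5 (r = 0.967), Colgalt1 (0.963) and Cfb (0.945), and Mmp14 was most like Lamp1 (r = 0.918), Ctsd (0.884) and Tmem176b (0.884). Mmp7 had an r of 0.846 with Mmp14 and 0.840 with Timp1. Timp2 and Timp3 had no gene above 0.807 and 0.780.

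In mesenchymal-like cells, Timp1, Mmp14, Mmp2 and Timp3 were each higher in both BDL libraries than in both sham libraries. Timp2 and Mmp25 overlapped between the groups. Of the 6 members with enough counts, 2 passed the threshold as higher (Mmp14 and Timp1), beside 2.09% of all genes tested, and 4 did at an unadjusted p under 0.05. In DESeq2 3 passed as higher, Timp3 being the third. No member passed as lower, beside 3.32% of all genes, with 0 at an unadjusted p under 0.05 in edgeR and 0 in DESeq2. The groups did not overlap for 4 of the 6 members, as for 51.8% of all genes tested. The members' median log2 difference was 1.03, and that of all genes was -0.00167. Since the members were chosen on such values, nothing is read from this.

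Timp1 was at 21.4 and 15.7 CPM in sham mesenchymal-like cells and at 118 and 214 CPM in BDL. Its log2 fold change was 3.21 ± 0.37 (SE), or 9.27-fold, and 2.42 in the pair of libraries whose names match. Mmp14 was at 294 and 253 CPM in sham and at 641 and 803 CPM in BDL, with a log2 fold change of 1.41 ± 0.24 (SE), or 2.65-fold, and 1.08 in that pair. Mmp2 was at 150 and 164 CPM in sham and at 261 and 400 CPM in BDL, with a log2 fold change of 1.08 ± 0.27 (SE), and 0.75 in that pair. Mmp2 was almost exclusively mesenchymal, with 875 of its 894 UMIs (97.9%) in these cells and 17 in all BEC-like cells. Timp3 was at 1102 and 832 CPM in sham and at 1950 and 1886 CPM in BDL, with a log2 fold change of 0.99 ± 0.26 (SE), and 0.78 in that pair. All 4 genes were higher in BDL replicate 1 than in sham replicate 1.

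Timp2 was at 483 and 405 CPM in sham and at 432 and 531 CPM in BDL, with a log2 fold change of 0.12 ± 0.24 (SE). Mmp25 was at 48.5 and 36.3 CPM in sham and at 52.9 and 15.3 CPM in BDL, with a log2 fold change of -0.45 ± 0.52 (SE). In the pair whose names match, the log2 ratios of Timp2 and Mmp25 were -0.21 and 0.08, both opposite in sign to the values over 4 libraries. Biliary markers in mesenchymal-like cells summed to 4.24% to 15.3% of their BEC-like level, and the Mmp25 level there was at least 41.1% of the BEC-like level in every library.

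**Figure D3:**
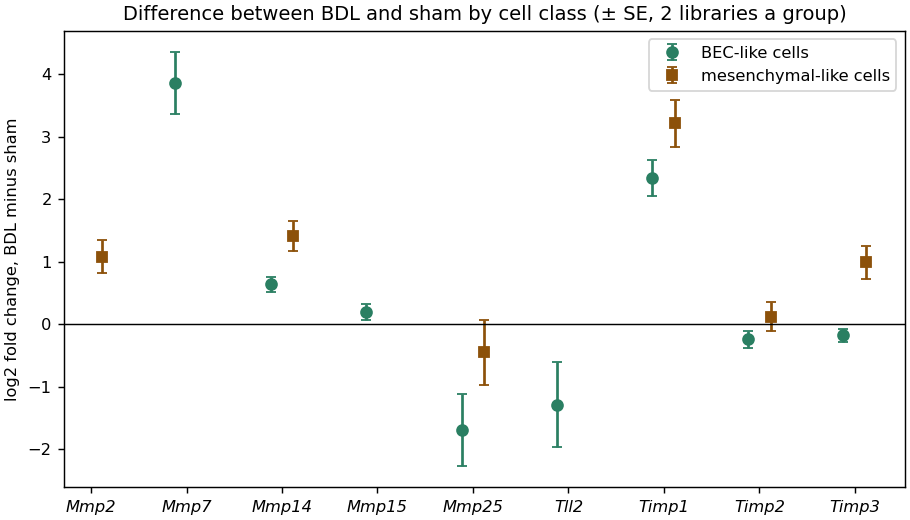
Log2 fold change of each tested member, BDL minus sham (vertical axis), in BEC-like cells (circles) and mesenchymal-like cells (squares); error bars are standard errors from edgeR over 2 libraries a group. Mmp7 (3.86) and Timp1 (2.34 and 3.21) lie farthest above 0, and Timp3 lies at 0.99 in mesenchymal-like and -0.18 in BEC-like cells.

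The mesenchymal-like cells comprised 3 clusters that were unequally filled. A cluster named stellate-like, from markers such as Lrat and Reln of quiescent vitamin A-storing cells, made up 57.4% and 76.3% of the class in sham and 38.0% and 16.7% in BDL. A collagen-high cluster made up 9.57% and 4.03% in sham and 60.6% and 81.8% in BDL. It met the limits for 8 collagen-high myofibroblast markers and also for 6 portal fibroblast markers. Whether its sham and BDL cells were of the same kind was not tested. The remaining cluster, led by C7 and Igfbp3, held 62 and 83 cells in sham and 1 and 2 cells in BDL. The differences over the whole class thus set mainly stellate-like and C7 and Igfbp3 cells of sham livers beside mainly collagen-high cells of BDL livers. Levels within a cluster rest on few cells, 27 and 22 stellate-like cells in BDL and 18 and 17 collagen-high cells in sham.

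Within the collagen-high cluster Mmp2 was at 448 and 516 CPM in sham and at 282 and 433 CPM in BDL, so both BDL libraries were below both sham libraries, the opposite of the whole class. Within the stellate-like cluster it was at 73.9 and 97.5 CPM in sham and at 170 and 209 CPM in BDL. Refitted on each cluster alone, the log2 fold change of Mmp2 was -0.62 in the collagen-high cluster. Mmp14 was at 614 and 497 CPM in sham and 729 and 858 CPM in BDL in the collagen-high cluster, and at 192 and 205 CPM in sham and 333 and 481 CPM in BDL in the stellate-like cluster. Its log2 fold change was 0.34 and 0.94 in those clusters, against 1.41 in the whole class.

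Timp1 was at 72.2 and 87.0 CPM in sham and 134 and 244 CPM in BDL in the collagen-high cluster, a log2 fold change of 1.06. In the stellate-like cluster 1 and 4 UMIs were found in sham and 9 and 3 UMIs in BDL. Timp3 had another layout. It was at 2418 and 2373 CPM in the C7 and Igfbp3 cells of sham livers, which were nearly absent from the BDL libraries. In the collagen-high cluster it was at 397 and 329 CPM in sham and 2400 and 2056 CPM in BDL, a log2 fold change of 2.45. In the stellate-like cluster Timp3 was at 452 and 348 CPM in sham and at 530 and 884 CPM in BDL. Timp2 was likewise highest in the sham C7 and Igfbp3 cells, at 899 and 692 CPM, against 228 and 274 CPM in sham stellate-like cells.

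**Figure D4:**
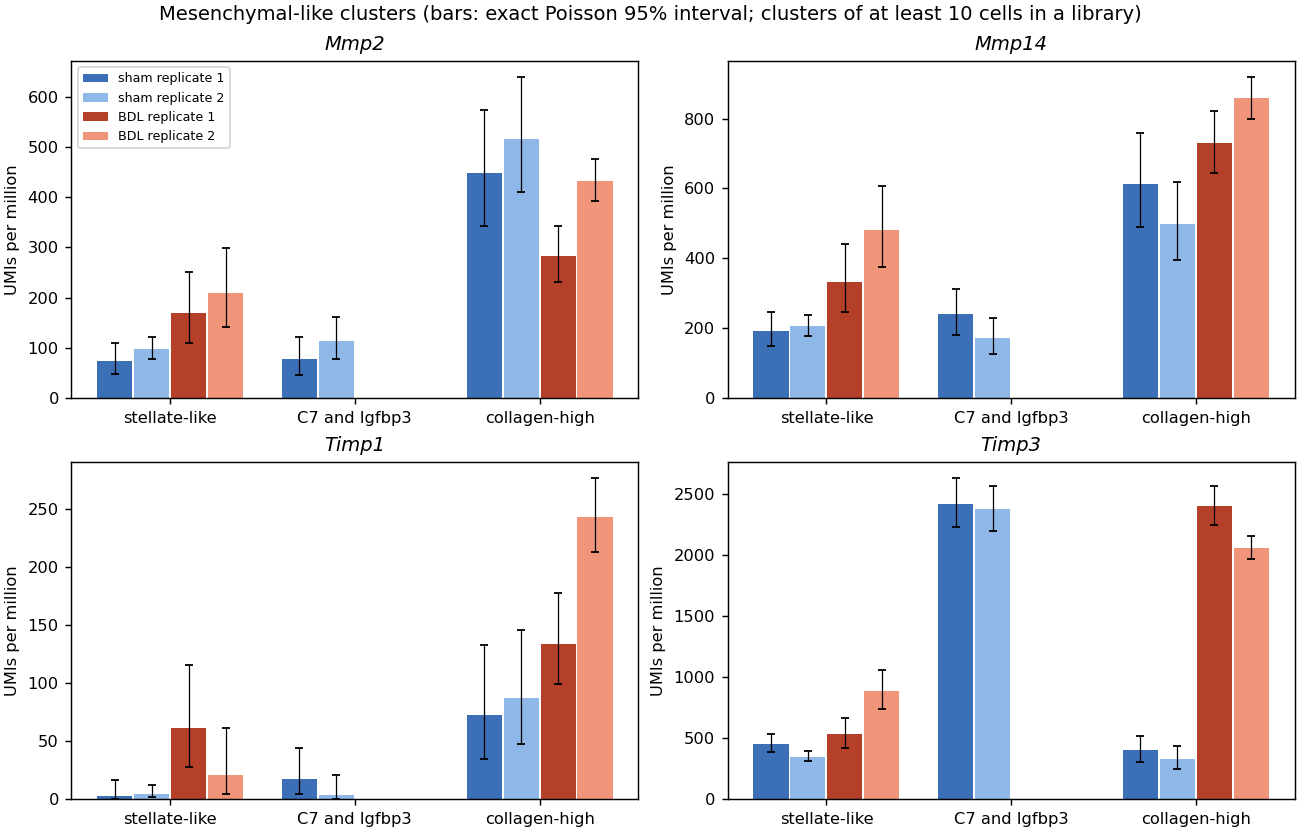
CPM of Mmp2, Mmp14, Timp1 and Timp3 in the 3 mesenchymal-like clusters, 1 bar per library, with exact Poisson 95% intervals that cover counting error only; clusters with fewer than 10 cells in a library (C7 and Igfbp3 in BDL) are not drawn. Timp3 is near 2400 in the sham C7 and Igfbp3 cells and lies at 397 and 329 in sham and 2400 and 2056 in BDL in the collagen-high cells.

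Endothelial-like cells were a further site of Timp3, at 2121 and 1700 CPM in sham and 2378 and 1975 CPM in BDL (without TMM), where the groups overlapped. Mmp14 was at 227 and 227 CPM in sham and at 310 and 534 CPM in BDL in these cells, the last from 70 UMIs in 34 cells. The class pooled cluster 11 with cluster 18, led by Ccl21a and Mmrn1, which held 3 and 3 cells in sham and 3 and 13 in BDL. The part of this make-up in the Mmp14 levels was not tested. Tll1, tolloid-like 1, was near the floor of detection, with 37 UMIs in all cells. Of these, 18 lay in BEC-like, 10 in mesenchymal-like and 9 in endothelial-like cells, 7 of the 9 in BDL replicate 2. Of the 10 mesenchymal-like UMIs, 6 came from the 18 collagen-high cells of sham replicate 1. No comparison of Tll1 was made.

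Set side by side, the 2 classes shared higher Mmp14 and Timp1 after BDL. The difference of the log2 fold changes, BEC-like minus mesenchymal-like, was -0.78 ± 0.26 (SE) for Mmp14 and -0.85 ± 0.47 (SE) for Timp1. For Timp3 it was -1.19 ± 0.27 (SE), with the whole classes on opposite sides of 0. For Mmp25 it was -1.42 ± 0.35 (SE). These values are descriptions with no p.

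The counts and adjusted p-values that follow are of genes listed with earlier results of these data known. They are descriptions, and nothing is read from them. Other proteases and inhibitors were taken from 6 such lists of 67 genes. Of these, 41 could be tested in BEC-like cells and 18 passed (edgeR's quasi-likelihood test, Benjamini-Hochberg adjustment over all genes tested), 12 as higher and 6 as lower, beside 26.9% of all genes. Of the 18, 8 had a mean under 10 CPM, fell outside the naming rule and were named after their values were seen. In BEC-like cells the plasmin system rose in 4 and fell in 1 of its 7 tested genes, with a median log2 fold change of 1.70. Plasmin is a broad protease that also activates MMP proforms. Plat, tissue plasminogen activator, rose from 47.3 and 86.8 CPM in sham to 544 and 618 CPM in BDL, a log2 fold change of 3.12 ± 0.28 (SE, edgeR adjusted p = 0.000953). Plau, urokinase, rose from 2.62 and 3.27 CPM to 25.6 and 37.1 CPM (log2 3.43 ± 0.26 SE, edgeR adjusted p = 0.000605). Serpine2, a serpin that inhibits plasminogen activators, rose from 19.9 and 14.99 CPM to 56.3 and 57.9 CPM (log2 1.70 ± 0.16 SE, edgeR adjusted p = 0.00115). Plg, the plasminogen gene of hepatocytes, fell by 4.35 on the log2 scale (edgeR adjusted p = 0.000929). The 11 hepatocyte markers summed to 1611 and 1672 CPM in sham BEC-like cells and to 411 and 406 CPM in BDL, and their part in that fall was not tested. In sham replicate 1 and BDL replicate 1 alone, the log2 ratio was 3.43 for Plat, 3.20 for Plau and 1.40 for Serpine2.

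Of the ADAM family genes, 8 could be tested in BEC-like cells. Of these 3 rose and 1 fell, beside 14.1% higher and 12.8% lower among all genes tested. Adam8 rose most, from 2.91 and 2.02 CPM in sham to 40.7 and 61.8 CPM in BDL (log2 4.36 ± 0.30 SE, edgeR adjusted p = 0.00047). Adam10, the sheddase of Notch receptors, rose by 0.66 ± 0.14 (SE) on the log2 scale (edgeR adjusted p = 0.0174), and Adam9 by 0.56 ± 0.13 (SE, edgeR adjusted p = 0.0207). Adam33 fell from 84.4 and 87.7 CPM to 29.6 and 25.3 CPM (log2 -1.65 ± 0.13 SE, edgeR adjusted p = 0.000606). Adam10 lost its call without sham replicate 2 (adjusted p = 0.0957), and Adam9 without either sham library (adjusted p = 0.149 and 0.102) and after thinning (0.123). Of 14 ADAMTS genes tested, 4 rose and 3 fell, beside the same 14.1% and 12.8% of all genes. Adamts7, Adamts3 and Adamts4 rose, and Adamts16 and Adamts17 fell, at mean levels between 4.19 and 9.58 CPM. Adamts9, which cuts proteoglycans such as versican, rose from 320 and 242 CPM to 1081 and 1060 CPM (log2 1.93 ± 0.16 SE, edgeR adjusted p = 0.000745). Adamts1 fell by 0.48 on the log2 scale (SE 0.11, edgeR adjusted p = 0.024), a call lost without either sham library, without BDL replicate 2 and where low counts were not filtered (adjusted p = 0.059 to 0.158). In the pair of libraries whose names match, the log2 ratios were 3.71 for Adam8, 0.37 for Adam10, 0.40 for Adam9, -1.61 for Adam33, 1.66 for Adamts9 and -0.46 for Adamts1.

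Of 7 other MMPs tested in BEC-like cells, 1 rose and 1 fell, beside 26.9% of all genes tested in either direction. Mmp23 rose (log2 2.55, edgeR adjusted p = 0.00549). Mmp24 fell (log2 -0.80, edgeR adjusted p = 0.0264, lost in DESeq2 at 0.0723). The median log2 fold change of the 7 was -0.55, beside -0.02 for all genes. Of the 3 other astacins and enhancers (Bmp1, Mep1b and Pcolce) none passed in edgeR, with 2 higher at an unadjusted p under 0.05, and 1 (Bmp1, as higher) passed in DESeq2. Of the 2 other inhibitors (Reck and Pzp) none passed in either tool, with 0 at an unadjusted p under 0.05 in edgeR and 1 in DESeq2.

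**Figure D5:**
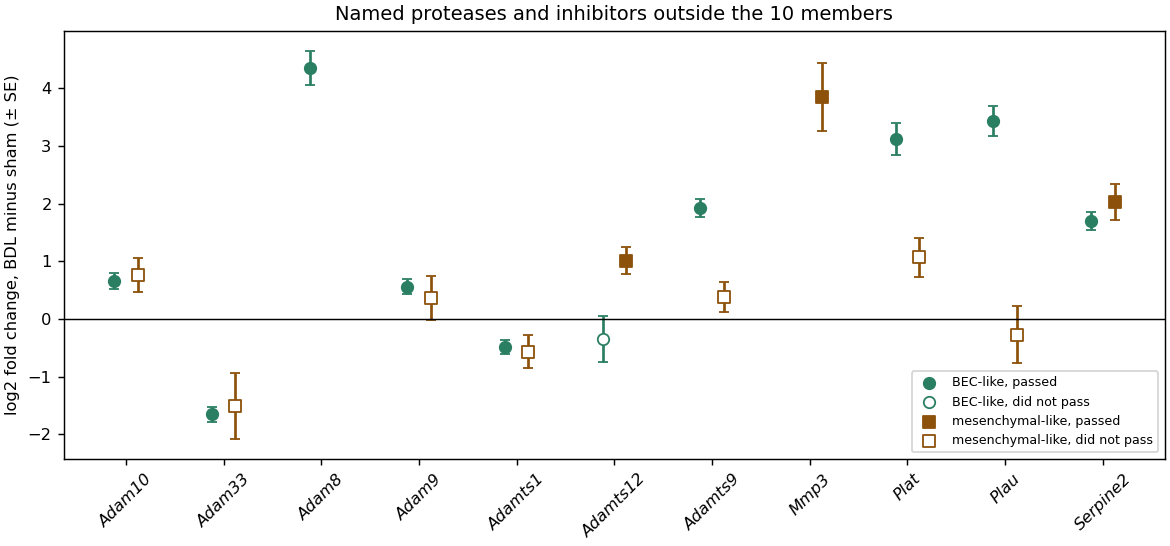
Log2 fold change, BDL minus sham (vertical axis), with standard errors from edgeR over 2 libraries a group, of 11 listed genes outside the members that the naming rule took, in BEC-like cells (circles) and mesenchymal-like cells (squares); filled symbols passed an adjusted p under 0.05. Plau lies at 3.43 in BEC-like and at -0.27 in mesenchymal-like cells, while Serpine2 passed in both.

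In mesenchymal-like cells 36 of the listed genes could be tested and 3 rose, beside 5.41% of all genes in either direction. None fell in edgeR or in DESeq2, with 6 lower at an unadjusted p under 0.05 in edgeR and 3 in DESeq2. Mmp3, stromelysin 1, rose from 9.98 and 1.65 CPM to 57.0 and 84.8 CPM (log2 3.85 ± 0.59 SE, edgeR adjusted p = 0.0109). Serpine2 rose from 172 and 91.6 CPM to 509 and 549 CPM (log2 2.02 ± 0.31 SE, edgeR adjusted p = 0.0114). Adamts12 rose from 145 and 137 CPM to 246 and 320 CPM (log2 1.01 ± 0.24 SE, edgeR adjusted p = 0.0438). Without BDL replicate 2 none of the 3 passed, at adjusted p = 0.0922 for Mmp3, 0.0647 for Serpine2 and 0.242 for Adamts12. Without it only 32 of all genes passed, against 473 with it. Adamts12 also missed the threshold in 9 further alternatives, and Serpine2 in the stellate-like cluster alone (log2 1.11, adjusted p = 0.317). In the pair of libraries whose names match, the log2 ratios were 2.47 for Mmp3, 1.51 for Serpine2 and 0.71 for Adamts12.

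Between the classes, the difference between BDL and sham itself differed for 10 of the 49 listed genes tested (edgeR's interaction test with Benjamini-Hochberg adjustment), beside 4.82% of all genes. In 9 of them the BEC-like log2 fold change was the higher, among them Plau and Plat, and in 1, Adamts12, the mesenchymal-like one was. Plat lost this call without sham replicate 1 (difference 1.12, edgeR adjusted p = 0.0816). Neither Plau nor Plat passed in mesenchymal-like cells alone. The values stand with the results picked out for a closer look.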

How the data were processed

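Single-cell RNA was measured in 4 mouse liver libraries. Fixed cells were barcoded by split-pool barcoding with random hexamer and oligo(dT) primers, per the labels' protocols. The deposited matrices hold whole UMI counts per cell and gene, not normalized, and each cell's sum equalled the count in the deposited cell table. The reference is GRCm39 per the submitters' processing notes. The deposited cell tables also hold a rescaled transcript score, which was not used. Counting software and handling of strand are not given in the sources used here.

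The members and lists were chosen with earlier results of these data known. Cells under 500 UMIs (7 cells) or over 20% mitochondrial UMIs (11 cells) were left out. Scrublet marked 14 doublets (0.115%), removed. So low a share was not relied on, and whether doublets were missed was not tested. Leaving out the 5% of cells with the highest scores was an alternative. Cells were clustered (scanpy 1.11.5, leidenalg 0.10.2, 2000 variable genes, 30 components, 20 neighbours, resolution 1) without the members or listed genes. Clusters were named from marker lists. The scoring limits were set after seeing the data: at least 3 markers, each in 5% of cells and over 2-fold above the cells compared, and 50% of the list for non-biliary classes. A BEC-like cluster with the mesothelial marker Msln among its top 10 genes and a small one led by tuft cell genes were left out in an added alternative.

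UMIs were summed per mouse and class and tested with edgeR 4.0.16 (R 4.3.3): TMM scaling, the default filter (filterByExpr), two-sided quasi-likelihood F tests, and Benjamini-Hochberg adjustment over all genes tested with a threshold of 0.05. DESeq2 1.42.0 was an alternative. The difference between the classes was an interaction with mouse as a block. The fits were tested on simulated data. CPM are TMM-scaled in whole-class comparisons and plain per cluster. Listed genes outside the members are named where the adjusted p was under 0.05, the mean at least 10 CPM and the groups did not overlap, at most 4 a list. One gene of the lists is counted but its values are not reported here. Poisson 95% intervals cover counting error only.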

Additional observations from a re-analysis of the deposited data

Results flagged for a closer look

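The difference between BDL and sham was itself different in the 2 classes for 10 of the 49 listed genes tested, by edgeR's interaction test with Benjamini-Hochberg adjustment over all genes, beside 4.82% of all genes. The lists were drawn up with earlier results of these data known, so nothing is read from this count. The values that follow, of 9 of the 10 genes, are BEC-like minus mesenchymal-like log2 fold changes. Adam8 had 6.88 (adjusted p = 0.00169), but -2.42 with an adjusted p of 0.971 without sham replicate 2. It could not be tested alone in mesenchymal-like cells. Plau had 3.72 (adjusted p = 0.000356). Plat had 2.06 (adjusted p = 0.00673), lost without sham replicate 1 (adjusted p = 0.0816). Adamts4 had 1.82 (adjusted p = 0.00188), Adamts3 had 1.80 (adjusted p = 0.0037) and Adamts9 had 1.53 (adjusted p = 0.00168). Adam12 had 1.64 (adjusted p = 0.0216) and missed the threshold in 4 alternatives. Adamts5 had 1.54 (adjusted p = 0.00745), lost without sham replicate 1 (adjusted p = 0.113). Adamts12 had -1.39 (adjusted p = 0.042) and missed the threshold in 5 alternatives.

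Timp3 lay on opposite sides in the 2 classes, with both BDL libraries above both sham libraries in mesenchymal-like cells (log2 0.989) and below them in BEC-like cells summed as a class (log2 -0.178). In the BEC-like subcluster led by Dmbt1 and Anxa1 both BDL libraries were above both sham libraries, and in 2 other subclusters the groups overlapped. Its difference entered the fit over all genes, and no p is given for it because it was chosen with earlier results known.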

How the results depend on the processing

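Without each library in turn, genes called in BEC-like cells ranged from 1334 to 6134 (4302 with all), listed genes called from 10 to 27 (18) and members called from 2 to 5 (3). Members called were also 5 with no filter on low counts. In mesenchymal-like cells these ranges were 32 to 465 genes (473), 0 to 5 listed genes (3) and 1 to 3 members (2). For the difference between the classes they were 426 to 772 genes (738) and 6 to 10 listed genes (10). Other settings moved the mesenchymal-like counts. Library totals without TMM gave 307 genes. No filter on low counts gave 1024 genes, 10 listed genes and 4 members. Leaving out cells with markers of the other class gave 118 genes and 1 member. Leaving out the highest doublet scores gave 5 listed genes and 4 members. Alternatives chosen after seeing the data were the stellate-like cluster alone (36 genes, 0 listed genes, 0 members) and the collagen-high cluster alone (215 genes, 1 member).

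Of the 240 alternative values of the members' log2 fold changes, 10 reversed. In mesenchymal-like cells Mmp2 was -0.62 in the collagen-high cluster alone. Without each library in turn Mmp25 ranged from -1.44 to 0.35 (without BDL replicate 2), and it was 0.31 without cells bearing markers of the other class, 0.70 in the stellate-like cluster alone and 0.081 in sham replicate 1 and BDL replicate 1 alone. Timp2 ranged from -0.028 (without BDL replicate 2) to 0.27 without each library in turn, and was -0.12 after thinning, -0.0436 without cells bearing markers of the other class and -0.21 in that pair. Adam8 in the difference between the classes ranged from -2.42 (without sham replicate 2) to 12.3 without each library in turn. The cause was not tested. Mmp7 in BEC-like cells ranged from 2.73 to 4.95. No paired analysis was possible because no number in the sample labels ties a sham mouse to a BDL mouse. Depth limits Timp1 in BEC-like cells and Tll1 everywhere.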

Other observations

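Krt78, the gene most like Mmp25 in pattern, fell in BEC-like cells from 389 and 339 CPM in sham to 106 and 48.1 CPM in BDL (log2 -2.25 ± 0.34 SE, edgeR adjusted p = 0.00554). Setd5, the gene most like Mmp7, rose from 213 and 176 CPM to 312 and 341 CPM (log2 0.75 ± 0.13 SE, edgeR adjusted p = 0.00952). Both were chosen by their likeness over the same libraries, so this is no independent support.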
